A study of Homo sapiens with 22 samples.

Results

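The SWI/SNF core subunits followed here were 10 genes whose products make up the non-catalytic body of the complex: SMARCB1, SMARCC1, SMARCC2, SMARCD1, SMARCD2, SMARCD3, SMARCE1, ACTL6A, BCL7B and BCL7C. They were chosen by gene symbol among the 28063 gene rows of the count files, and all 10 were found in every library. Poly(A) RNA of 3 human leukaemia cell lines was sequenced in 22 libraries that form 11 groups of 2. The lines were THP-1, MOLM-13 and MV-4-11, all grown in RPMI with 10% FBS and marked WT in the labels, and each received DMSO, 1 µM BRM014 for 24 h or 1 µM BRM014 for 72 h. Another THP-1 group was kept in 10 nM PMA for 48 h and then rested from it for 24 h, and the last was given 3 µM DB2313 for 72 h. The labels give neither the time in DMSO nor whether replicates were separate cultures. Every p-value therefore treats the libraries of a group as its replicates, and the spread between them may be technical only.

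SWI/SNF complexes use the energy of ATP to slide or evict nucleosomes, and an ATPase, SMARCA4 (BRG1) or SMARCA2 (BRM), drives them. The core subunits hold that motor together: SMARCC1 and SMARCC2 form the scaffold on which SMARCD and SMARCE1 proteins assemble, SMARCB1 contacts the nucleosome, and ACTL6A and BCL7 proteins sit with the ATPase. SMARCC, SMARCD and BCL7 proteins come from paralogous genes, so a cell's complexes can differ in which paralog they hold, and SMARCD2 is known for its role in the making of granulocytes. BRM014 inhibits the ATPase activity of both SMARCA4 and SMARCA2. PMA, a phorbol ester that activates protein kinase C, drives THP-1 cells towards a macrophage-like state, and DB2313 is an inhibitor of the myeloid transcription factor PU.1. All 3 lines come from acute myeloid or monocytic leukaemias with a rearranged KMT2A gene.

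Each library held between 15893489 and 21565666 reads assigned to genes, and a count of 0 would allow up to 0.189 counts per 1000000 reads in genes (CPM) in the shallowest library, by the rule of 3 counts, which covers counting error only. All 10 genes on a list of myeloid markers reached 1 CPM in at least 1 library, with a summed level of 916 to 10610 CPM. In THP-1 that sum went from 3035 and 3220 CPM in DMSO to between 945 and 1075 CPM with BRM014. Most of this fall was LYZ, at 1755 and 1934 CPM in DMSO and 91.9 to 236.5 CPM with BRM014. Not all of the list fell: CD14 went from at most 1.68 CPM to 56.0 and 62.7 CPM at 72 h. In MOLM-13 the sum was 1683 and 1870 CPM in DMSO, 1479 and 1604 CPM at 24 h, and 2707 and 2838 CPM at 72 h. That 72 h rise was mostly CEBPA, at 671 and 804 CPM in DMSO and 1665 and 1786 CPM at 72 h. LYZ and CSF3R were higher too. MPO fell from 167 and 168 CPM to 5.96 and 8.10 CPM, and CSF1R, CD33, SPI1 and FCGR1A were also lower at 72 h than in DMSO. MV-4-11 had 1274 and 1287 CPM in DMSO and 916 to 1179 CPM with BRM014. CEBPA went against that fall, from 350 and 362 CPM in MV-4-11 DMSO to between 649.9 and 779 CPM with BRM014. PMA gave the highest sum, 10340 and 10610 CPM, most of it LYZ (8300 and 8432 CPM). CSF1R, ITGAM, CD14, CD33, SPI1 and FCGR1A were higher as well, whereas MPO and CEBPA were lower than in THP-1 DMSO. Markers of other cell types moved with treatment too. The erythroid and megakaryocyte list summed to 177 and 189 CPM after DB2313, carried by ITGA2B (140.0 and 152 CPM) and GP9 (37.1 and 37.5 CPM), and to at most 7.42 CPM in any other group, while PF4 was at 0 in all 22 libraries. The epithelial and fibroblast list summed to 151 and 155 CPM in THP-1 at 72 h of BRM014, mostly COL1A1 (114 and 122 CPM). That list summed to at most 2.67 CPM in THP-1 DMSO, and to 70.15 and 76.23 CPM after DB2313. The lymphoid list went from 49.1 and 56.7 CPM in MOLM-13 DMSO, mostly NKG7 (42.8 and 51.7 CPM), to 2.57 and 3.19 CPM at 72 h. In THP-1 it summed to 27.4 and 30.3 CPM in DMSO and to 72.7 and 87.6 CPM after DB2313. Reads outside annotated genes made up 13.2% and 12.4% of the total in MOLM-13 DMSO and 18.2% and 18.4% at 72 h, and 16.5% and 15.8% in THP-1 DMSO against 18.4 to 19.2% with BRM014. In MV-4-11 they were 14.3% and 13.8% in DMSO and at most 13.5% with BRM014, lower than in DMSO. The part of these shifts in the results was not tested. Of the 28063 genes, 16794 had enough reads to be tested, all 10 core subunits among them.

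SMARCB1 (chr22:23786931-23838008, GRCh38, GENCODE v29) could not be read as a level in these files. Its replicates were far apart: 7.05 and 2.39 CPM in MOLM-13 DMSO, 1.57 and 16.3 CPM in THP-1 DMSO, 3.16 and 27.0 CPM in MOLM-13 after 72 h of BRM014, and 12.2 and 3.89 CPM in MV-4-11 after 72 h. Its other groups held 4.28 and 4.69 CPM in MV-4-11 DMSO, 6.70 and 6.50 CPM in MOLM-13 at 24 h, 5.78 and 11.0 CPM in MV-4-11 at 24 h, and between 1.32 and 3.38 CPM in the treated THP-1 groups. Replicates of one treatment differed as much as treatments did, by up to 10.4-fold. The SD between its replicates was 1.01 on the log2 CPM scale, which ranked 40 from the top among 12607 genes with a mean of at least 2 CPM, whose median was 0.128. On the same stretch of chromosome 22, MIF, a cytokine gene, had 0 reads in all 22 libraries and DDT 0.0527 to 1.42 CPM. CABIN1 had 64.9 to 191 CPM, and DERL3, which overlaps SMARCB1 on the opposite strand over 3506 bases, had 0 to 12.4 CPM. These neighbours were picked after the SMARCB1 values were seen. SMARCB1 passed the test in THP-1 after 72 h of BRM014 (log2 fold change -2.26 ± 0.87, SE; adjusted p = 0.0310) and after PMA (-2.67 ± 0.90; adjusted p = 0.0248). Both calls rested on the second THP-1 DMSO library: without it the changes were 0.28 (adjusted p = 0.857) and -0.13 (adjusted p = 0.963). Both were also lost when either replicate of the treated group was left out, with adjusted p between 0.0716 and 0.122, and with a replicate block (0.0738 and 0.0592). The cause of the SMARCB1 values was not tested, and its counts below are kept only so that all 10 members are accounted for.

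**Figure D1:**
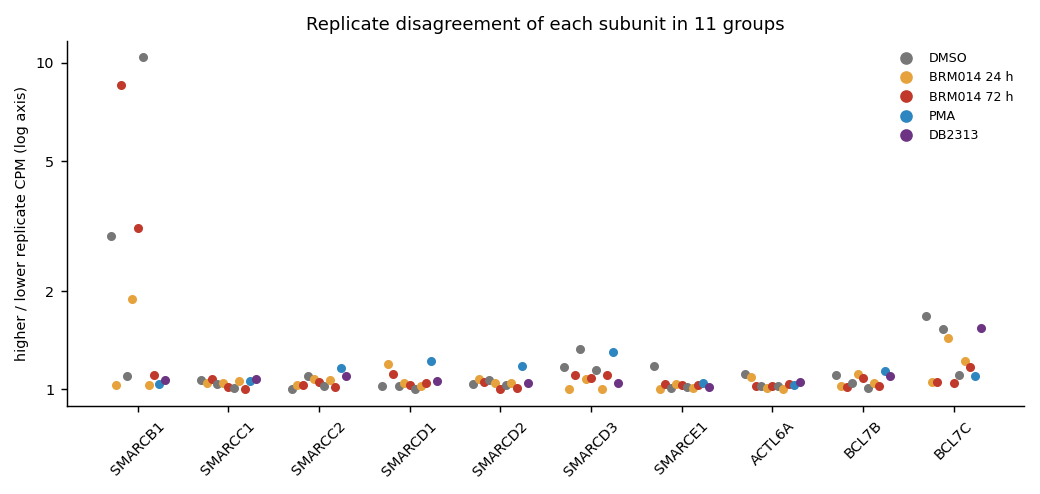
Ratio of the higher to the lower replicate CPM (log axis) for each of the 10 core subunits, with 1 point for each of the 11 groups, coloured by treatment. SMARCB1 reaches 10.4, BCL7C 1.67 and SMARCD3 1.33, and the others stay lower.

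For the other 9 subunits, levels between genes were compared as RPKM, CPM divided by the length of annotated exon in kilobases. In THP-1 DMSO, ACTL6A stood highest at 65.8 and 67.5 RPKM. It was followed by SMARCD2 (41.6 and 40.3 RPKM), SMARCC1 (38.6 and 38.3 RPKM), SMARCC2 (34.1 and 34.9 RPKM) and BCL7B (33.5 and 33.1 RPKM). SMARCE1 and SMARCD1 were lower, at 11.9 and 12.1 RPKM and at 10.5 RPKM in both libraries. SMARCD3 (4.20 and 3.67 RPKM) and BCL7C (2.23 and 2.47 RPKM) came last. In MOLM-13 DMSO SMARCD2 stood above ACTL6A instead, at 59.2 and 61.7 against 50.5 and 45.3 RPKM, as it did in MV-4-11 DMSO, at 85.6 and 91.2 against 64.0 and 62.3 RPKM. The replicates of neighbouring genes in the THP-1 order did not overlap, though SMARCC2 and BCL7B lay within 2 RPKM of each other. The rank of SMARCE1 is uncertain, because its annotated exons sum to 12684 bases and reach into an overlapping gene model.

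The scaffold pair moved apart under BRM014. SMARCC1 (BAF155; chr3:47585272-47782106) fell in all 3 lines at both times, and SMARCC2 (BAF170; chr12:56162983-56189567) had no fall that passed the test in any line. In MOLM-13, SMARCC1 was at 253 and 236 CPM with DMSO, 207 and 198 CPM at 24 h, and 108 and 116 CPM at 72 h. MV-4-11 cells had 321 and 334 CPM with DMSO, 229.9 and 241 CPM at 24 h, and 163 and 161 CPM at 72 h. THP-1 cells had 246 and 244 CPM with DMSO, 169 and 179 CPM at 24 h, and 132 CPM in both libraries at 72 h. In each line the DMSO, 24 h and 72 h libraries formed 3 steps down that did not overlap. Averaged over lines, SMARCC1 fell by 0.50 ± 0.04 (log2 fold change, SE) at 24 h (adjusted p = 5.67e-10) and by 1.12 ± 0.04 at 72 h (adjusted p = 6.88e-16). In bulk RNA, fewer cells holding a transcript and less of it per cell cannot be told apart.

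SMARCC2 stood at 102 CPM in both MOLM-13 DMSO libraries, 128 and 132 CPM at 24 h, and 176 and 171 CPM at 72 h. In MV-4-11 its replicates overlapped across treatments, with 135 and 123 CPM for DMSO, 126 and 136 CPM at 24 h, and 143 and 136 CPM at 72 h. Levels in THP-1 were 155 and 159 CPM with DMSO, 178 and 190.1 CPM at 24 h, and 176 and 172 CPM at 72 h. MOLM-13 showed the one stepwise rise, of 0.21 ± 0.07 at 24 h and 0.57 ± 0.07 at 72 h (adjusted p = 0.0201 and 8.00e-07). At 72 h the changes in MV-4-11 (0.05 ± 0.07) and THP-1 (0.06 ± 0.07) did not pass the test, and the effect differed between lines (F test across lines, adjusted p = 0.000253). The mean over lines rose by 0.12 ± 0.04 at 24 h (adjusted p = 0.0218) and by 0.23 ± 0.04 at 72 h (adjusted p = 5.72e-05). The 24 h call was lost in 5 of the 22 fits that left out 1 library, with adjusted p of 0.0564 to 0.0952: those without the second MOLM-13, MV-4-11 or THP-1 BRM014 24 h library, the second MV-4-11 DMSO library or the first THP-1 DMSO library. The MOLM-13 call at 24 h was lost without either MOLM-13 24 h library or the first MOLM-13 DMSO library (adjusted p 0.0510 to 0.111). The THP-1 rise at 24 h (0.18 ± 0.07, adjusted p = 0.0399) was lost in 9 of the 22 fits (adjusted p up to 0.229, without the second THP-1 24 h library). Without the filter on low counts the 24 h calls in the mean, MOLM-13 and THP-1 were lost as well (adjusted p 0.144 to 0.201). RLE scaling ended those in the mean and THP-1 (0.0605 and 0.0681), and the THP-1 call was lost with DESeq2 (0.0526), a replicate block (0.0690) and THP-1 libraries alone (0.209). The gene lies within a longer gene model on the same strand, AC073896.4, which was not among the genes counted. SMARCC2 also touches MYL6, which was counted, on the other strand over 514 bases. Reads there could have been shared out differently by the authors' counting.

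**Figure D2:**
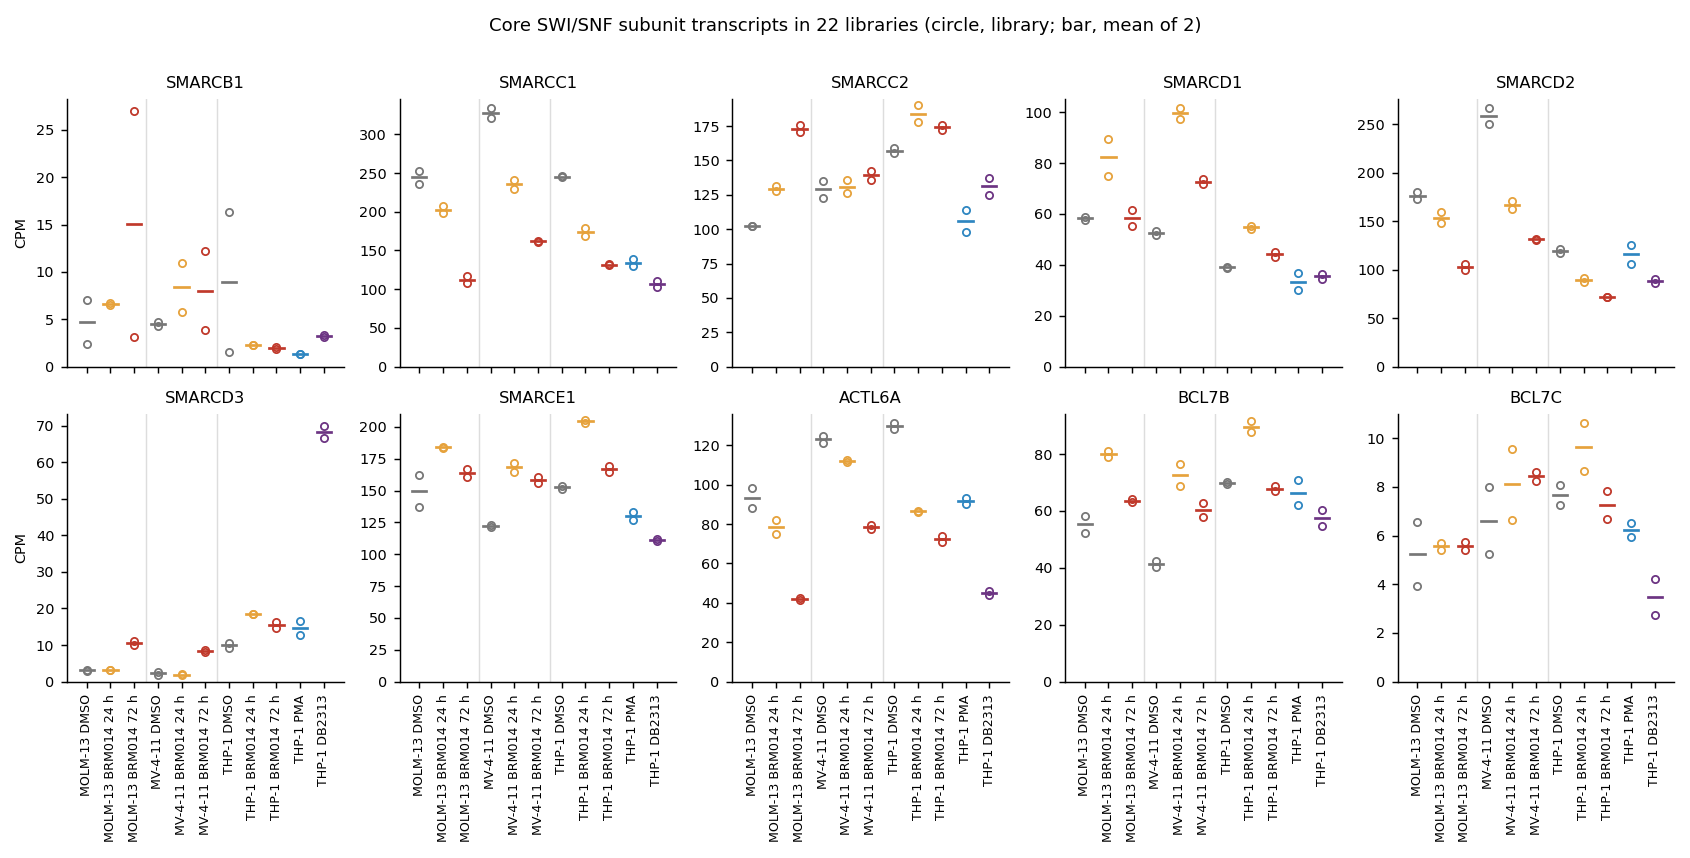
CPM of each core subunit in the 22 libraries (circles) with the mean of each group of 2 (bars), ordered by line and treatment; each panel has its own axis from 0. SMARCC1 steps down from DMSO to 24 h to 72 h in every line, and SMARCD3 reaches 69.8 and 66.7 CPM after DB2313.

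SMARCD genes (BAF60 paralogs) each took a different course. SMARCD1 rose at 24 h in all 3 lines, SMARCD2 fell at both times in all 3 lines, and SMARCD3 rose at 72 h in all 3 lines. The RefSeq promoters of the 3 genes (GRCh38.p14; 250 bases before to 50 after the start) are shown because these paralogs were the members whose courses differed most. Each is printed 5′ to 3′ in the sense of the gene, with the bases from the annotated start onwards in capitals. They lie at chr12:50085092-50085391 (+ strand), chr17:63842636-63842935 (- strand) and chr7:151277100-151277399 (- strand), and for genes with several starts the one furthest upstream was taken.
SMARCD1: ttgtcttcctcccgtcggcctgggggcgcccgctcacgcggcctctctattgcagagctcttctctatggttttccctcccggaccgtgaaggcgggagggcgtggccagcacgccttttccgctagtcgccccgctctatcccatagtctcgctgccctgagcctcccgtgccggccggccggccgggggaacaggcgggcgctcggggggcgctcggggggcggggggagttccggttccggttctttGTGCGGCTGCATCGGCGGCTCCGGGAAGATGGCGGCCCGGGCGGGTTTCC
SMARCD2: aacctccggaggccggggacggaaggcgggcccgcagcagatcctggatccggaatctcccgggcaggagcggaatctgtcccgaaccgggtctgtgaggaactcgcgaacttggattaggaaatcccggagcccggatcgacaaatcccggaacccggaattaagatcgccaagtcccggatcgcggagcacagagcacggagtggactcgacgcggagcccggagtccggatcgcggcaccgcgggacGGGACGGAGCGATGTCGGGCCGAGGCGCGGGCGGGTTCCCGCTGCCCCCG
SMARCD3: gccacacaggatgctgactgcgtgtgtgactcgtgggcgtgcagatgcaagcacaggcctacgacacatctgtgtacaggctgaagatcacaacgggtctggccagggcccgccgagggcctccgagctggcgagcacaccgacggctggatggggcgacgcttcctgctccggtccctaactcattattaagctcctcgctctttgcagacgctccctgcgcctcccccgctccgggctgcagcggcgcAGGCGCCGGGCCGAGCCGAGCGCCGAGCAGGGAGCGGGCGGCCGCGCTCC
RefSeq lists 3 starts each for SMARCD2 and SMARCD3, and the gene counts do not tell which was used. The number of CG dinucleotides in these windows ranged from 5 to 48 for SMARCD2 and from 1 to 36 for SMARCD3, was 35 for SMARCD1, and had a median of 14 over all 35116 promoters of the table. No window of the SMARCD genes held any of the 4 motifs searched on both strands: CACGTG (an E-box), CCGGAAGT (ETS), GAGGAAGT (a PU.1-type ETS site) and TTTGGCGC (E2F). These are held by 7.26%, 4.14%, 2.59% and 0.652% of all promoters. Of the 12 promoter windows of 7 members in the table, 1 held a match, an E-box in a window of BCL7B at chr7:73557641-73557940. SMARCC1, SMARCC2 and ACTL6A had no promoter window there, so none of theirs was searched.

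SMARCD1 (chr12:50084972-50100712) rose at 24 h in all 3 lines and was lower again at 72 h, in MV-4-11 still above DMSO. Levels in MV-4-11 were 53.1 and 51.8 CPM with DMSO, 97.4 and 102 CPM at 24 h, and 71.6 and 73.7 CPM at 72 h. In MOLM-13 it was at 57.5 and 59.0 CPM with DMSO, 75.0 and 89.4 CPM at 24 h, and 61.5 and 55.3 CPM at 72 h. In THP-1 it was at 39.0 and 38.9 CPM with DMSO, 53.9 and 55.4 CPM at 24 h, and 43.2 and 45.2 CPM at 72 h. Every 24 h library lay above both DMSO and both 72 h libraries of its line. The mean over lines rose by 0.56 ± 0.05 at 24 h (adjusted p = 1.06e-08), was 0.11 ± 0.05 at 72 h (adjusted p = 0.0801), and fell by 0.45 ± 0.05 from 24 to 72 h (adjusted p = 3.51e-07). In MV-4-11 the 72 h change was 0.41 ± 0.09 (adjusted p = 0.000533), while -0.19 ± 0.09 in MOLM-13 and 0.10 ± 0.09 in THP-1 did not pass. The 72 h mean passed the test with libraries scaled by their totals (0.22, adjusted p = 0.00159) and when the second MOLM-13 72 h library or either PMA library was left out (adjusted p 0.0442 to 0.0485). The size differed between lines at both times (adjusted p = 0.00765 and 0.00191), with 0.85 ± 0.09 in MV-4-11 at 24 h against 0.37 ± 0.09 in MOLM-13 and 0.44 ± 0.09 in THP-1. The MOLM-13 call was lost without its second 24 h library (0.24, adjusted p = 0.0727).

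SMARCD2 (chr17:63832081-63843065), the most abundant of the trio per length in DMSO, fell stepwise. In MOLM-13 it was at 172 and 179.8 CPM with DMSO, 148 and 159 CPM at 24 h, and 105 and 99.8 CPM at 72 h. In MV-4-11 it was at 249.6 and 266 CPM with DMSO, 170.4 and 163 CPM at 24 h, and 131 CPM in both libraries at 72 h. THP-1 cells had 121 and 117 CPM with DMSO, 91.5 and 87.5 CPM at 24 h, and 71.4 and 72.2 CPM at 72 h. As for SMARCC1, the 3 steps did not overlap in any line. The mean fell by 0.50 ± 0.05 at 24 h (adjusted p = 1.32e-08) and by 0.94 ± 0.05 at 72 h (adjusted p = 3.02e-13).

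SMARCD3 (chr7:151238764-151277896) was scarce in DMSO and its course split the lines. In MOLM-13 it was at 2.79 and 3.27 CPM with DMSO, 3.04 CPM in both libraries at 24 h, and 10.1 and 11.2 CPM at 72 h. MV-4-11 cells had 2.56 and 1.92 CPM with DMSO, 1.95 and 1.81 CPM at 24 h, and 7.97 and 8.62 CPM at 72 h. Levels in THP-1 were 10.6 and 9.30 CPM with DMSO, 18.4 CPM in both libraries at 24 h, and 16.2 and 14.7 CPM at 72 h. So in MOLM-13 and MV-4-11 only the 72 h libraries lay above DMSO, whereas in THP-1 both times did. At 24 h the change was 0.84 ± 0.15 in THP-1 (adjusted p = 0.000108), -0.12 ± 0.21 in MOLM-13 and -0.32 ± 0.22 in MV-4-11, and the difference between lines passed the test (adjusted p = 0.00170). At 72 h it was 1.62 ± 0.18 in MOLM-13, 1.84 ± 0.19 in MV-4-11 and 0.55 ± 0.15 in THP-1 (adjusted p for the difference 0.000222). The THP-1 call at 72 h was lost without the second THP-1 DMSO library (0.46, adjusted p = 0.0591). Averaged over lines, SMARCD3 was 0.13 ± 0.11 at 24 h (adjusted p = 0.350) and rose by 1.34 ± 0.10 at 72 h (adjusted p = 1.98e-10).

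The make-up of the paralog pairs was then compared within each library, where depth and scaling cancel. The log2 ratio of SMARCC1 to SMARCC2 counts fell by 0.61 at 24 h and by 1.35 at 72 h, against an SD between replicates of 0.073 and 0.080. The ratio of SMARCD1 to SMARCD2 rose by 1.05 at both times (SD 0.075 and 0.049), and that of SMARCD2 to SMARCD3 changed by -0.63 at 24 h and -2.27 at 72 h (SD 0.165 and 0.182). THP-1 had the larger part of that 24 h change, with -1.30 against -0.21 in MOLM-13 and -0.39 in MV-4-11, and the mean without THP-1 was -0.30. The changes of these 3 ratios each went the same way in all 3 lines, with p = 0.00926 in a two-sided exact permutation test of labels within lines, the smallest p that the arrangements allow, and 0.0132 after adjustment over 10 tests. The ratio of SMARCD1 to SMARCD3 did not pass at 24 h (0.42, exact permutation p = 0.148), with 0.48 in MOLM-13, 1.16 in MV-4-11 and -0.40 in THP-1, and fell by 1.22 at 72 h (exact permutation p = 0.00926). BCL7B to BCL7C did not pass at either time (exact permutation p = 0.167 and 0.546).

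Per exon length, SMARCC1 made up 63.0% ± 1.2 (SD, n = 2) of the SMARCC pair in MOLM-13 DMSO, 52.7% ± 1.4 at 24 h and 31.6% ± 1.6 at 72 h. In MV-4-11 its share went from 64.5% ± 2.2 to 56.2% ± 0.49 and 45.3% ± 0.64, and in THP-1 from 52.7% ± 0.57 to 40.3% ± 0.12 and 35.1% ± 0.29. By this measure SMARCC2 was the more abundant transcript of the pair at 72 h in each line, whereas SMARCC1 was in each DMSO group. In MV-4-11 at 72 h the order depended on the exon lengths: in CPM SMARCC1 stayed above SMARCC2, at 163 and 161 against 143 and 136 CPM. Of the SMARCD trio, SMARCD2 held 78.2% ± 0.084 in MOLM-13 DMSO, 85.5% ± 0.92 in MV-4-11 DMSO and 73.9% ± 0.11 in THP-1 DMSO, and 63.8% ± 0.13, 66.3% ± 0.52 and 57.8% ± 0.28 at 72 h. The share of SMARCD1 at 72 h lay close together in the lines, at 28.5% ± 0.99, 28.9% ± 0.30 and 27.9% ± 0.81, after 20.3% ± 0.22, 13.7% ± 0.72 and 19.0% ± 0.40 in DMSO.

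**Figure D3:**
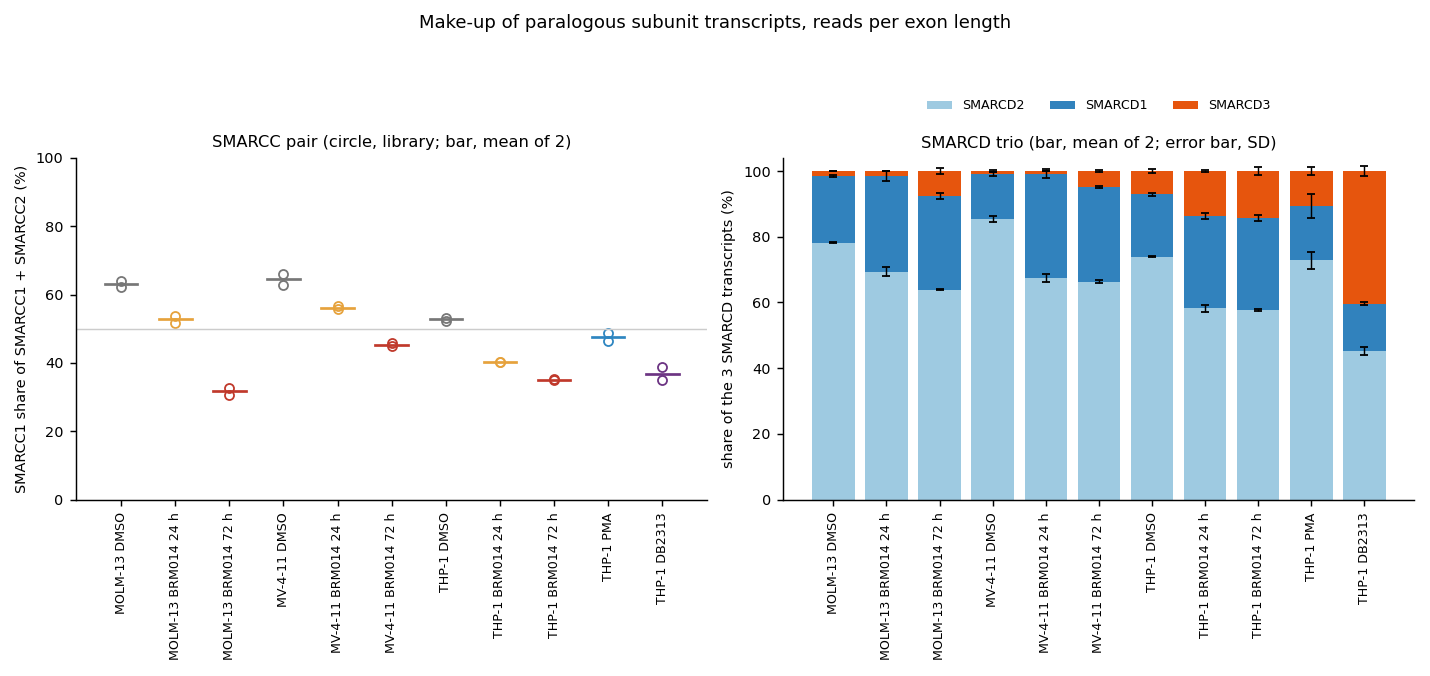
Left, share of SMARCC1 in the SMARCC pair, in reads per exon length, for each library (circles) and group mean (bars), with a line at equal shares. Right, mean shares of SMARCD1, SMARCD2 and SMARCD3 in their sum with SD over 2 libraries; SMARCD3 is 40.4% of the trio after DB2313.

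SMARCE1 (BAF57, an HMG-box subunit; chr17:40624962-40648864) rose at 24 h in MV-4-11 and THP-1 and in the mean of lines. Levels in MV-4-11 were 122 and 123 CPM with DMSO, 172 and 165 CPM at 24 h, and 161 and 156 CPM at 72 h. In THP-1 it was at 151 and 154 CPM with DMSO, 205 and 203 CPM at 24 h, and 169 and 164 CPM at 72 h. In MOLM-13 the DMSO replicates were spread, at 162 and 137 CPM, with 184 CPM in both 24 h libraries and 161 and 167 CPM at 72 h. All 24 h libraries lay above the DMSO libraries of their line, and at 72 h MOLM-13 overlapped DMSO. The mean rose by 0.31 ± 0.04 at 24 h (adjusted p = 1.18e-06), with 0.39 ± 0.07 in MV-4-11, 0.38 ± 0.07 in THP-1 and 0.17 ± 0.07 in MOLM-13. The MOLM-13 change did not pass (adjusted p = 0.0541), but did with DESeq2 (0.0447), with total-count scaling (0.00167) and in 3 of the 22 fits that left out 1 library (adjusted p 0.00739 to 0.0264): those without the first MOLM-13 DMSO or either PMA library. From 24 to 72 h it fell in THP-1 (-0.33 ± 0.07) and MOLM-13 (-0.23 ± 0.07), a call lost in MOLM-13 without its first 72 h library (adjusted p = 0.0817) and with total-count scaling (0.0619), and the step in MV-4-11 (-0.07 ± 0.07, adjusted p = 0.467) did not pass. At 72 h the rise was 0.10 ± 0.04 (adjusted p = 0.0386), a call lost in 12 of the 22 fits that left out 1 library (adjusted p up to 0.163, without the second MOLM-13 DMSO library). It was also lost without the filter (0.391), with the block (0.0589) and in the 18 DMSO and BRM014 libraries alone (0.0736). MV-4-11 was the line in which SMARCE1 passed at 72 h (0.31 ± 0.07, adjusted p = 0.000719), and the difference between lines passed as well (adjusted p = 0.00890). The gene model AC073508.2 overlaps SMARCE1 on the same strand but was not among the genes counted, and its effect on the SMARCE1 counts was not tested.

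ACTL6A (BAF53A, an actin-related subunit that also belongs to the INO80 and TIP60 complexes; chr3:179562880-179588408) fell in all 3 lines at both times. In MOLM-13 it was at 98.4 and 88.3 CPM with DMSO, 82.0 and 74.9 CPM at 24 h, and 42.4 and 41.5 CPM at 72 h. In MV-4-11 it was at 125 and 121 CPM with DMSO, 112 and 113 CPM at 24 h, and 77.4 and 79.3 CPM at 72 h. THP-1 cells had 128 and 131 CPM with DMSO, 86.7 and 86.2 CPM at 24 h, and 71.0 and 73.8 CPM at 72 h. No 2 of these groups overlapped within a line. The mean fell by 0.41 ± 0.04 at 24 h (adjusted p = 1.55e-08) and by 0.99 ± 0.04 at 72 h (adjusted p = 6.34e-15). THP-1 had most of its fall by 24 h (-0.63 ± 0.07, then -0.29 ± 0.07 from 24 to 72 h) and MOLM-13 the larger part later (-0.38 ± 0.07, then -0.97 ± 0.07). The lines differed at both times (adjusted p = 0.00338 and 5.48e-05). The 24 h call in MV-4-11 (-0.21 ± 0.07, adjusted p = 0.0153) was lost without any one of the MV-4-11 DMSO or 24 h libraries (adjusted p 0.0602 to 0.0862), without the filter (0.0539) and with total-count scaling (0.128).

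BCL7B (chr7:73536356-73558002), a small subunit of the ATPase module, rose at 24 h in all 3 lines. In MOLM-13 it was at 52.3 and 58.1 CPM with DMSO, 79.0 and 80.9 CPM at 24 h, and 64.0 and 63.1 CPM at 72 h. MV-4-11 cells had 42.2 and 40.4 CPM with DMSO, 68.8 and 76.7 CPM at 24 h, and 62.7 and 57.9 CPM at 72 h. Levels in THP-1 were 70.2 and 69.4 CPM with DMSO, 87.7 and 91.6 CPM at 24 h, and 66.9 and 68.6 CPM at 72 h. All 24 h libraries were above the rest of their line. The mean rose by 0.49 ± 0.05 at 24 h (adjusted p = 6.87e-08) and by 0.12 ± 0.05 at 72 h (adjusted p = 0.0450), a call lost in 17 of the 22 fits that left out 1 library (adjusted p up to 0.178, without the first MV-4-11 72 h library). That call was also lost without the filter, with RLE scaling, DESeq2 or the block (adjusted p 0.0559 to 0.263). At 72 h the change was 0.49 ± 0.09 in MV-4-11, 0.01 ± 0.09 in MOLM-13 and -0.13 ± 0.09 in THP-1 (adjusted p for the difference 0.00111). The MOLM-13 value depended on scaling: in CPM both 72 h libraries lay above DMSO, and with total-count scaling the rise passed (0.20, adjusted p = 0.0474). In the 18 DMSO and BRM014 libraries alone the fall of BCL7B in THP-1 passed (-0.17, adjusted p = 0.0465). BCL7C (chr16:30833626-30894960), its paralog, was between 2.74 and 10.6 CPM in the 22 libraries and passed no test of BRM014 against DMSO. Its replicates differed by up to 1.67-fold, and it overlaps MIR762HG on the opposite strand over 19739 bases, so its counts are uncertain where strand was not used.

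Counted over the 10 members, 7 passed at 24 h in the mean of lines, 4 higher and 3 lower, where 56.0% of all genes passed (28.9% higher and 27.1% lower). At 72 h 7 passed, again 4 higher and 3 lower, where 65.3% of all genes passed (34.9% higher and 30.4% lower). These shares are close to the background, and the median change of the members (0.13 and 0.05) lay beside 0.03 and 0.07 for all genes. In MOLM-13, 6 members passed at 24 h (46.2% of all genes) and 5 at 72 h (59.7%). In MV-4-11, 6 passed at 24 h (46.1%) and 7 at 72 h (54.5%). In THP-1, 8 passed at 24 h (50.0%) and 5 at 72 h (58.9%), 1 of the 5 being SMARCB1. SMARCC1, SMARCD2 and ACTL6A were the members that passed in every line at both times, each time lower.

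**Figure D4:**
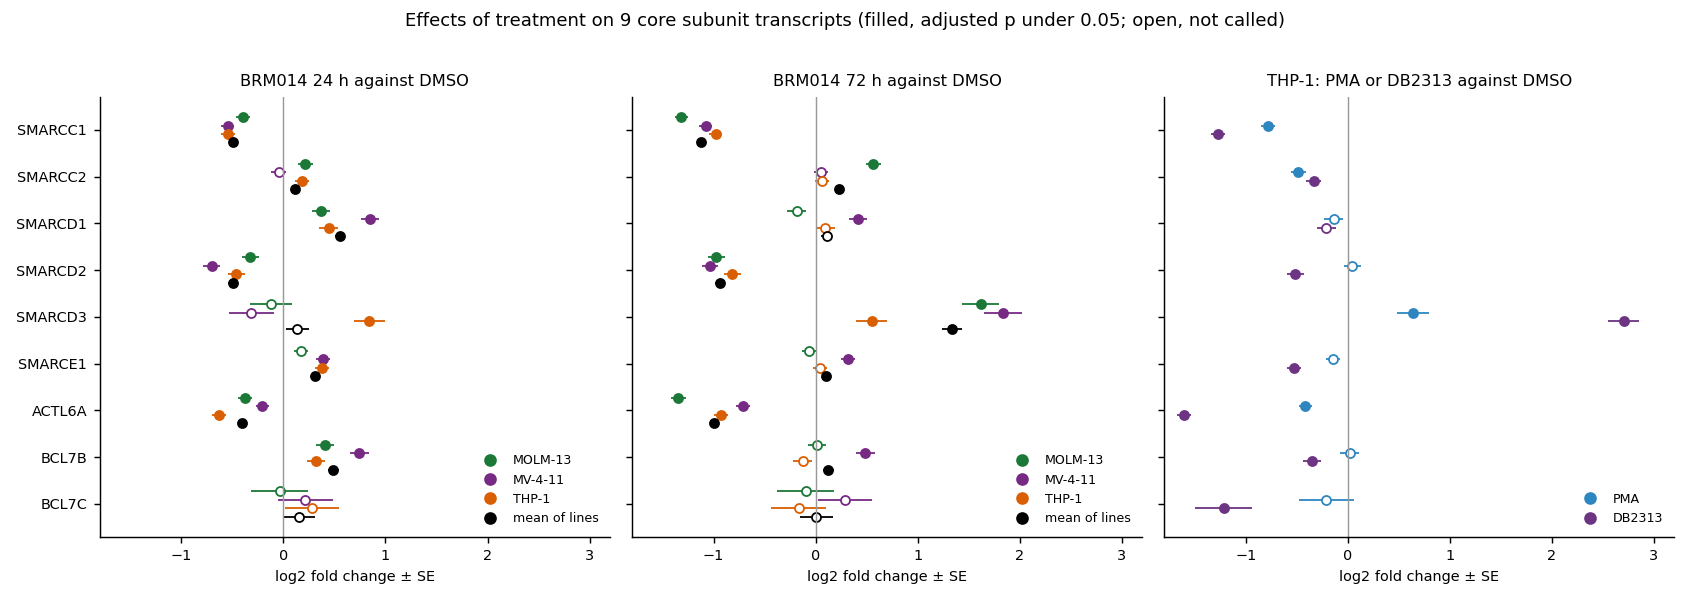
Log2 fold change ± SE against DMSO of 9 core subunits (SMARCB1 left out for its spread) for BRM014 at 24 h and 72 h by line and in the mean of lines, and for PMA and DB2313 in THP-1; filled points had an adjusted p under 0.05. SMARCC1, SMARCD2 and ACTL6A lie left of 0 for BRM014 in every line at both times.

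Comparisons at 24 h and 72 h share their DMSO libraries, so the times were also set against each other directly. From 24 to 72 h 8 members changed in the mean of lines (48.0% of all genes), 2 higher and 6 lower. Of all genes 24.6% were higher and 23.4% lower. The mean of SMARCD3 rose by 1.20 ± 0.10, with 1.74 ± 0.18 in MOLM-13, 2.16 ± 0.19 in MV-4-11 and -0.29 ± 0.15 in THP-1 (adjusted p = 0.144). That of SMARCC2 rose by 0.11 ± 0.04 (adjusted p = 0.0309), with 0.35 ± 0.07 in MOLM-13, while 0.10 ± 0.07 in MV-4-11 and -0.12 ± 0.07 in THP-1 did not pass. The SMARCC2 call was lost in 7 of the 22 fits that left out 1 library (adjusted p 0.0595 to 0.131): those without either MOLM-13 24 h library, or the first MV-4-11 24 h, THP-1 24 h, MOLM-13 72 h, MV-4-11 72 h or THP-1 72 h library. It was also lost without the filter on low counts (adjusted p = 0.110) and with a replicate block (0.0566). SMARCC1 (-0.63 ± 0.04), ACTL6A (-0.59 ± 0.04), SMARCD2 (-0.45 ± 0.05), SMARCD1 (-0.45 ± 0.05), BCL7B (-0.37 ± 0.05) and SMARCE1 (-0.21 ± 0.04) fell. By line, 8 members changed in MOLM-13 (43.5% of all genes), 6 in MV-4-11 (35.4%) and 6 in THP-1 (32.7%).

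The lines differed in their starting levels and in their response. In DMSO, 8 members differed between lines (78.9% of all genes), the exceptions being SMARCB1 and BCL7C. SMARCC1 and SMARCD2 were highest in MV-4-11, SMARCC2, BCL7B and SMARCD3 in THP-1, and SMARCD1 was lowest in THP-1. MOLM-13 and THP-1 overlapped for SMARCC1 and SMARCE1. The response to BRM014 differed between lines for 5 members at 24 h (43.5% of all genes) and for 8 at 72 h (52.9%). SMARCD2 at 72 h was not among them (adjusted p = 0.259), with falls of 0.97 ± 0.08 in MOLM-13, 1.04 ± 0.08 in MV-4-11 and 0.82 ± 0.08 in THP-1.

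In THP-1, PMA and DB2313 were each compared with the same 2 DMSO libraries as BRM014, so these 3 comparisons are not independent. The PMA replicates stood further apart than those of any other group: the chi-square of their counts was 30.4 per degree of freedom, where sampling noise alone gives about 1, against 3.14 to 10.7 elsewhere, and 16.0% and 12.4% of their reads lay outside annotated genes. After PMA 5 members passed (36.1% of all genes), 4 lower (17.1% of all genes), 1 of them SMARCB1, and 1 higher (18.9%). SMARCC1 was at 139 and 130.3 CPM (-0.78 ± 0.07, adjusted p = 1.09e-08), SMARCC2 at 114 and 97.9 CPM (-0.48 ± 0.07, adjusted p = 2.02e-05) and ACTL6A at 93.3 and 90.3 CPM (-0.42 ± 0.07, adjusted p = 5.10e-05), all below both DMSO libraries. SMARCD3, at 12.7 and 16.5 CPM, rose by 0.64 ± 0.15 (adjusted p = 0.00265), a call lost without the second PMA library (0.41, adjusted p = 0.0582). The SMARCC1, SMARCC2 and ACTL6A calls held without either PMA library. SMARCE1 did not pass in the main fit (-0.14), but did without the second PMA library (-0.20) and with total-count scaling (-0.23, adjusted p = 0.0149). SMARCD2 did not pass, with 106 and 125 CPM around the 121 and 117 CPM of DMSO. Of the genes that passed after PMA, 52.5% were higher, and 41.0% were when libraries were scaled by their total alone.

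After DB2313 most of the core was lower than in THP-1 DMSO, and SMARCD3 was higher. The labels do not say whether the DB2313 cultures ran in parallel with that DMSO pair, so drug and any batch cannot be told apart. With DB2313, 8 members passed (65.4% of all genes), 7 lower (29.5% of all genes) and 1 higher (35.9%). SMARCD3, at 69.8 and 66.7 CPM, rose by 2.70 ± 0.15 (adjusted p = 5.98e-12), to its highest level in any group. Its share of the SMARCD trio per exon length was 40.4% ± 1.6, against 7.10% ± 0.51 in DMSO. ACTL6A, at 43.9 and 46.2 CPM, fell by 1.60 ± 0.07 (adjusted p = 1.30e-13), and SMARCC1, at 111 and 103 CPM, fell by 1.27 ± 0.07 (adjusted p = 2.69e-12). For these 3 genes both DB2313 libraries lay outside the range of the THP-1 DMSO pair. SMARCD2 held 45.3% ± 1.1 of the trio after DB2313, against 73.9% ± 0.11 in DMSO. BCL7C, at 4.23 and 2.74 CPM, fell by 1.22 ± 0.28 (adjusted p = 0.000823). SMARCE1 (-0.53 ± 0.07), SMARCD2 (-0.51 ± 0.08), BCL7B (-0.35 ± 0.09) and SMARCC2 (-0.34 ± 0.07) were also lower. SMARCD1, at 34.4 and 36.5 CPM, was -0.21 ± 0.09 (adjusted p = 0.0531), and passed in 6 of the 22 fits that left out 1 library (adjusted p 0.0281 to 0.0493): those without either PMA, MOLM-13 24 h or MV-4-11 24 h library. All genes tested had a median change of 0.14 after DB2313.

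BRM014 and DB2313 in THP-1, both at 72 h but at different doses, left 9 members apart when compared directly (61.3% of all genes). With BRM014 relative to DB2313, SMARCD3 was lower (-2.15 ± 0.15), as was SMARCD2 (-0.30 ± 0.08). ACTL6A (0.67 ± 0.07), SMARCE1 (0.57 ± 0.07), SMARCC2 (0.40 ± 0.07), SMARCD1 (0.31 ± 0.09), SMARCC1 (0.29 ± 0.07) and BCL7B (0.22 ± 0.09) were higher with BRM014, as was BCL7C (1.05 ± 0.28). The BCL7C call was lost without the second DB2313 library (0.75, adjusted p = 0.0668), the SMARCD1 call without the second BRM014 72 h library (adjusted p = 0.0512), and the BCL7B call without either of the BRM014 72 h libraries or the second DB2313 library (adjusted p 0.0846 to 0.318). The BCL7B call was also lost without the filter, with RLE scaling, DESeq2, the block or THP-1 libraries alone (adjusted p 0.0541 to 0.0965). Whether DB2313 cultures ran in parallel with the rest is not stated in the labels.

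The rest of the complex was followed as a list of 19 other subunits, of which 18 were tested. At 24 h 10 rose and 3 fell, with a median change of 0.47 beside 0.03 for all genes, of which 28.9% rose and 27.1% fell. BICRAL (1.24 ± 0.06) and BICRA (1.16 ± 0.09), alternative subunits of the non-canonical complex, and SS18 (1.03 ± 0.04) rose most. BRD9 (-0.40 ± 0.06), another non-canonical subunit, PHF10 (-0.24 ± 0.04) and the ATPase gene SMARCA2 (-0.20 ± 0.03) fell. At 72 h 10 rose and 6 fell, with a median of 0.32 beside 0.07 for all genes, of which 34.9% rose and 30.4% fell. DPF3 (1.54 ± 0.54, adjusted p = 0.0367, with few reads), BICRAL (1.22 ± 0.06) and BICRA (1.21 ± 0.09) rose most, while BRD9 (-0.64 ± 0.06), SMARCA4 (-0.49 ± 0.04) and ACTB (-0.44 ± 0.04) fell most. None of the falls on this list at 72 h was as large as those of SMARCC1, ACTL6A or SMARCD2 in the core.

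**Figure D5:**
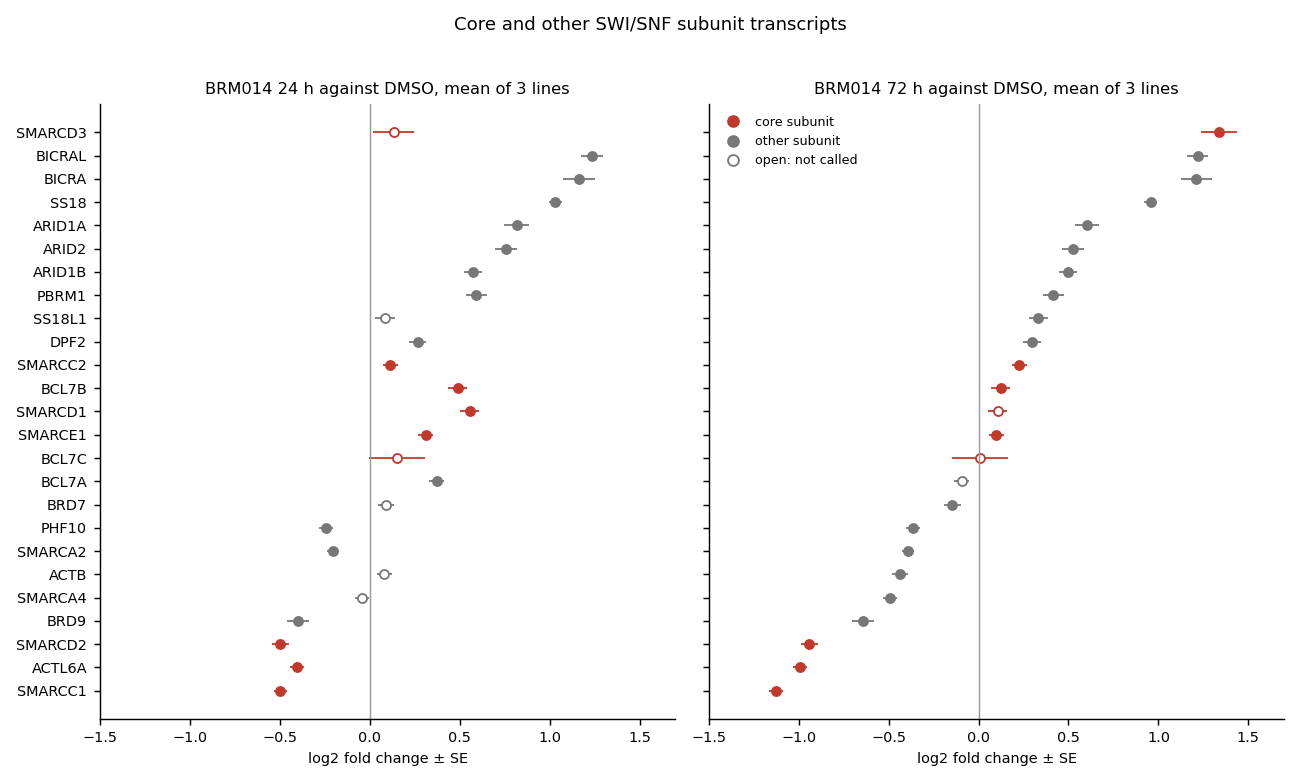
Log2 fold change ± SE of core (red) and other (grey) SWI/SNF subunits in the mean of 3 lines after 24 h and 72 h of BRM014, ordered by the 72 h value; open points did not pass the test, and SMARCB1, DPF1 and DPF3 are not drawn. SMARCC1, ACTL6A and SMARCD2 are the 3 lowest at 72 h, and SMARCD3 is the highest drawn.

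ACTL6A is also a subunit of INO80 and TIP60, and 11 other genes of those complexes were counted. At 24 h 5 rose and 4 fell, with a median of -0.05, and at 72 h 3 rose and 5 fell, with a median of -0.14. After DB2313 1 rose and 8 fell, with a median of -0.38 beside 0.14 for all genes, of which 29.5% fell. RUVBL1 and RUVBL2, the AAA+ ATPases of both complexes, fell by 1.96 ± 0.07 and 1.60 ± 0.09 at 72 h; they were named after their values were seen. Markers of dividing cells moved as well: of 20 proliferation genes, 5 rose and 10 fell at 24 h (median -0.14), all 20 fell at 72 h (median -1.03), 15 fell after PMA (median -0.42), and 2 rose and 15 fell after DB2313 (median -0.72). Of all genes 27.1% fell at 24 h, 30.4% at 72 h, 17.1% after PMA and 29.5% after DB2313, with medians of 0.03, 0.07, -0.02 and 0.14. Their part in the falls of ACTL6A, SMARCC1 and SMARCD2 was not tested.

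Across the 11 group means of log2 CPM, which share libraries, lines and depth within a group, SMARCC1 ran most closely with ACTL6A (Pearson r = 0.875) and SMARCD2 (0.847) among the members. SMARCD3 ran opposite to SMARCD2 (-0.821), SMARCC1 (-0.795) and SMARCD1 (-0.78). SMARCE1 and BCL7B, which both peaked at 24 h, had r = 0.761. Among 16784 other genes tested, the profile most like each member was that of AKR7A2 for SMARCC1 (r = 0.968), DUSP1 for SMARCC2 (0.923), TAF3 for SMARCD1 (0.976), RABL3 for SMARCD2 (0.978) and PTK6 for SMARCD3 (0.945). It was NFU1 for SMARCE1 (0.954), MMS22L for ACTL6A (0.977), TUBGCP5 for BCL7B (0.924), ENSA for BCL7C (0.961) and HIST1H4E for SMARCB1 (0.944). These are descriptions over 11 points, the highest of 16784 values each.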

How the data were processed

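Poly(A) RNA-seq was deposited as 1 table of raw read counts per gene symbol and library. Per the submitters' processing notes, the authors used HISAT2 2.1.0, HTSeq and DESeq2 with hg38; the role of each, the annotation and the strand setting are not given in the sources used here. The deposited counts were used as they are: summary rows that name no gene were left out (no feature, 12.0 to 19.2% of all rows' reads, summary rows included; ambiguous, 3.04 to 3.82%), and totals were 15893489 to 21565666 reads in genes per library. CPM uses those totals, and RPKM the union of exons in GENCODE v29.

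All 22 libraries entered 1 edgeR 4.0.16 quasi-likelihood fit with a coefficient per group, TMM scaling and filterByExpr (minimum count 10), which tested 16794 genes. P-values were Benjamini-Hochberg adjusted over all genes tested and called under 0.05; SE is the fold change divided by the root of F. Differences between lines were F tests. Ratios of paralog counts (0.5 added) were permuted within lines. The script was tested on simulated data. Alternatives were scaling, filter, DESeq2 1.42.0, subsets of libraries, a replicate block and leaving out each library. Promoter sequences and starts are those of RefSeq (GRCh38.p14); gene coordinates are GENCODE v29. All 10 members, and for the other SWI/SNF subunits the 3 largest changes called in each direction, were named. The members and lists were chosen with earlier results of these data known.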

Additional observations from a re-analysis of the deposited data

Results flagged for a closer look

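The effect of BRM014 differed between the 3 lines, by an F test in edgeR over all 16794 genes, for 5 core subunits at 24 h. Of all genes, 43.5% passed that test at 24 h. The adjusted p was 0.00765 for SMARCD1 (0.85 in MV-4-11 against 0.37 and 0.44), 0.0300 for SMARCD2 (-0.70 in MV-4-11 against -0.32 in MOLM-13), 0.00170 for SMARCD3 (higher in THP-1 alone), 0.00338 for ACTL6A (-0.63 in THP-1 against -0.21 in MV-4-11) and 0.0213 for BCL7B (0.74 in MV-4-11 against 0.41 and 0.32). The SMARCD2 and BCL7B differences were each lost in 4 of the 22 fits that left out 1 library, with adjusted p up to 0.145 and 0.146. That of SMARCD2 was also lost without the filter on low counts (0.0502) and with a replicate block (0.0548). The libraries were the second MOLM-13 24 h, first MOLM-13 DMSO, second MV-4-11 24 h and second MV-4-11 DMSO for SMARCD2, and the second MV-4-11 24 h, both MV-4-11 DMSO and first THP-1 24 h for BCL7B. For SMARCC2 the difference did not pass in the main fit (adjusted p = 0.0774). It did with DESeq2 (0.0316) and in the 18 DMSO and BRM014 libraries alone (0.0160).

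At 72 h the same test separated the lines for 8 subunits, SMARCB1 among them, and for 52.9% of all genes. The adjusted p was 0.0150 for SMARCC1 (-1.31 in MOLM-13 against -0.98 in THP-1), 0.000253 for SMARCC2 (0.57 in MOLM-13 against 0.05 and 0.06), 0.00191 for SMARCD1 (0.41 in MV-4-11 against -0.19 in MOLM-13), 0.000222 for SMARCD3, 0.00890 for SMARCE1, 5.48e-05 for ACTL6A (-1.34 in MOLM-13 against -0.71 in MV-4-11), 0.00111 for BCL7B and 0.0258 for SMARCB1. The SMARCC1 difference was lost without the first MOLM-13 72 h or the first MOLM-13 DMSO library (adjusted p 0.104 and 0.0658), or with total-count scaling (0.135), under which that of SMARCE1 was lost too (0.0656). The SMARCB1 difference was lost without the second MOLM-13 DMSO library, either THP-1 72 h library or the second THP-1 DMSO library, with adjusted p of 0.675 without the last, and with the replicate block (0.0910).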

How the results depend on the processing

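The number of members called stayed within 1.5 times its main value in the 18 comparisons run under total-count scaling, RLE scaling, DESeq2, no filter and the replicate block, the 15 run with the 18 DMSO and BRM014 libraries alone and the 12 run with a line's libraries alone. Leaving out 1 library gave 3 to 5 called members for BRM014 at 72 h in THP-1, 5 to 8 for the mean of lines at 72 h, and 3 to 6 for the difference between lines at 24 h. The 3 called in THP-1 came without the second DMSO library, and the 3 for the difference came without the second MV-4-11 24 h or DMSO library. Scaling by totals moved the median change of all genes to 0.11 at 24 h, 0.18 at 72 h (0.16 in MOLM-13) and -0.10 after PMA, from 0.03, 0.07 (0 in MOLM-13) and -0.02, and the share of calls that were higher in MOLM-13 at 24 h from 49.1% to 59.3%.

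Changes that turned sign were not called in the main analysis, except SMARCB1 in THP-1 at 72 h. Under total-count scaling they became 0.0065 for SMARCD3 in MOLM-13 at 24 h, 0.0057 for SMARCD1 and 0.13 for SMARCE1 in MOLM-13 at 72 h, 0.024 for SMARCC2 in MV-4-11 at 24 h, and -0.043 for SMARCD2 and -0.0701 for BCL7B after PMA. Without a filter BCL7B in MOLM-13 at 72 h became -0.0316. With the line's libraries alone SMARCE1 in THP-1 at 72 h became -0.00999 and BCL7B after PMA -0.00822. As a share per exon length, SMARCD1 against SMARCD3 at 24 h became -0.23 percentage points. Leaving out 1 library gave -0.25 to 0.017 for SMARCD3 in MOLM-13 at 24 h, -0.081 to 0.10 for BCL7B and -0.16 to 0.044 for SMARCE1 in MOLM-13 at 72 h, -0.10 to 0.016 at 24 h and -0.0038 to 0.11 at 72 h for SMARCC2 in MV-4-11, -3.11 to 0.28 for SMARCB1 in THP-1 at 72 h, and -0.11 to 0.18 for SMARCD2 and -0.11 to 0.13 for BCL7B after PMA. The cause was not tested.

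Replicate numbers did not pair the libraries: deviations of same-numbered libraries correlated between -0.369 and 0.277 over 16 pairs of groups, 3 of them over 0.1. With the replicate block, 140 of the results on single members kept their side of the threshold and 9 lost the call, and the members called in the mean of lines numbered 7 at 24 h and 5 at 72 h. The lost calls were SMARCE1 (adjusted p = 0.0589) and BCL7B (0.0624) in the mean at 72 h, SMARCC2 in THP-1 at 24 h (0.0690) and from 24 to 72 h in the mean (0.0566), SMARCB1 in THP-1 at 72 h (0.0738), after PMA (0.0592) and between lines at 72 h (0.0910), BCL7B between BRM014 and DB2313 (0.0546), and SMARCD2 between lines at 24 h (0.0548). Without the filter 9 calls were lost, 4 with RLE scaling, 3 with DESeq2 and 4 with total-count scaling, each given with its result. Leaving out a line moved 5 (MOLM-13), 5 (MV-4-11) and 6 (THP-1) of the 10 paralog ratio changes by more than the SD between replicates, and turned none. There were 2 libraries per group, and levels were under 12 CPM for BCL7C and for SMARCD3 outside DB2313 and THP-1. Small changes of these genes may therefore have been missed, and no detection limit was worked out for them.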
